A study of Mus musculus with 10 samples.

Results

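Cells take up long-chain fatty acids from blood plasma and lymph through a relay of proteins, and 10 genes of this relay were followed in sorted meningeal lymphatic endothelial cells (LECs) of female mice: Lpl, Gpihbp1, Cd36, Slc27a4, Fabp3, Fabp4, Fabp5, Cpt1a, Pparg and Meox2. They were taken by symbol, 10 of the 55401 genes in the table of read counts, and each matched a single row. The naive group held 5 replicates from unstressed C57BL/6 mice and the SCVS group 5 replicates from C57BL/6 mice after sub-chronic variable stress, a 6-day schedule of alternating foot-shock, tail suspension and restraint. Mice of both groups were 3 months old, are described with no engineered allele and no drug, and each replicate was a pool of cells from 3 to 4 meninges sorted as CD45-CD31+podoplanin+, so p-values measure the spread between pools. Libraries held 9984743 to 14094155 counts in total, and values are given as counts or as counts scaled to a common library total (CPM, per 1000000 counts). A count of 3, taken as the floor of detection, corresponded to 0.213 to 0.3005 CPM and covers counting error only, because the amplified reads carry no molecular identifiers.

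Triglyceride-rich lipoproteins are hydrolysed at the luminal face of capillaries by lipoprotein lipase (Lpl). Cells such as adipocytes, myocytes and macrophages secrete this enzyme, and GPIHBP1 carries it across the capillary endothelial cell and anchors it at that face. The released fatty acids enter endothelial cells with the help of the scavenger receptor CD36 and the acyl-CoA synthetase FATP4 (Slc27a4), and are held in the cytosol by fatty acid-binding proteins (FABPs). Pparg encodes a nuclear receptor whose targets include Cd36 and Fabp4, Meox2 encodes a homeobox factor that acts with TCF15 on fatty acid uptake genes of heart endothelium, and CPT1A admits fatty acyl groups to mitochondria for oxidation, which LECs are known to rely on.

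One library stood apart in its pan-endothelial markers, and another had the lowest lymphatic markers. The summed CPM of 6 pan-endothelial markers (Pecam1, Cdh5, Tek, Tie1, Egfl7 and Emcn) was 407.1 in naive replicate 5, which was 11.3% of the lowest sum in any other replicate, and lay between 3606 and 6957 in the other 9. The same replicate had the highest sum of 6 neuronal and glial markers, 3278 CPM against 151.4 to 1769 in the others. Of the lymphatic markers (Prox1, Lyve1, Flt4, Pdpn, Mmrn1, Ccl21a and Reln), naive replicate 1 held 60.8 CPM in sum, with 0 counts of Prox1 and Pdpn, and naive replicate 5 held 184.9 CPM, whereas the other 8 held 439.5 to 3074 CPM. The sum of 9 blood endothelial markers was higher than that of the lymphatic markers in all 10 replicates, by 1.98 to 155.8 times. The lists differ in genes and number, so these ratios do not give shares of cells. The 6 mural markers summed to 408.5 to 7469 CPM over the 10 replicates, with 5078 in naive replicate 5, of which Rgs5 made 5057. The 5 fibroblast markers summed to 18.5 to 1500 CPM. The 5 erythroid markers summed to 4863 CPM in SCVS replicate 5 and to 4.32 to 125.4 CPM in the others. Markers of blood endothelium, mural cells, fibroblasts, neurons and glia were thus read beside those of lymphatic endothelium in every replicate. In such bulk samples, fewer cells of a type and less RNA per cell cannot be told apart. Each member is therefore given in every replicate, and its log2 fold change is also given without naive replicate 5.

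No member passed the test between SCVS and naive mice. Of the 10 genes, 9 had more than 5 counts in at least 3 replicates and entered the test of 14815 genes, and Meox2 was not. With p-values of edgeR's quasi-likelihood test adjusted by Benjamini-Hochberg over every tested gene, 0 of the 9 were called at 0.1, as were 0% of tested genes, and each member's adjusted p was 1.00. Before adjustment, 0 of the 9 members and 3.1% of all tested genes had a p under 0.05. DESeq2 with its default settings called 0 members, beside 0.769% of all tested genes. The 9 members had a median log2 fold change of 0.06 (5 above 0), and all tested genes a median of −0.03. For none of the 10 members did the naive and SCVS replicates fall into ranges that did not overlap, which was so for 0.628% of tested genes.

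**Figure D1:**
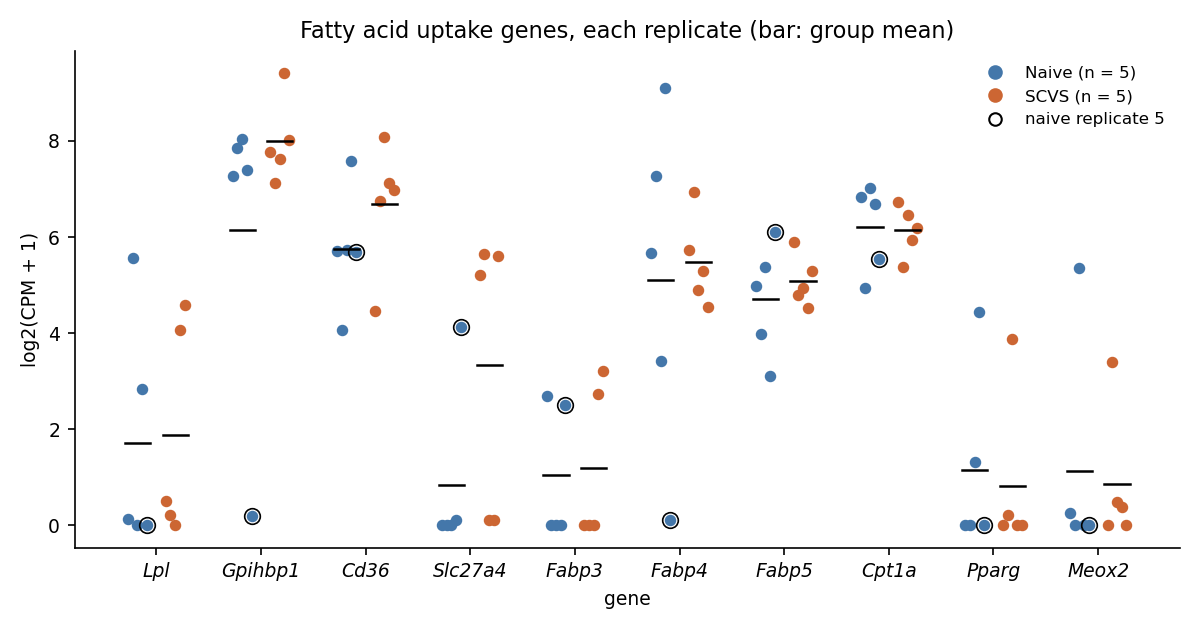
Level of each fatty acid uptake gene, as log2(CPM + 1) on the vertical axis, in the 5 naive (blue) and 5 SCVS (orange) replicates, with bars at group means of this log scale and a ring around naive replicate 5. Gpihbp1, Cd36, Fabp4, Fabp5 and Cpt1a were above the floor in at least 9 replicates, the other members in 5 or fewer.

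By the number of replicates above the floor, the members fell into a steadily detected and a sparse set. Cd36, Fabp5 and Cpt1a had more than 3 counts in all 10 replicates, as did 38.1% of tested genes. Gpihbp1 and Fabp4 had more than 3 counts in 9 replicates, all but naive replicate 5. Lpl was above the floor in 5 replicates, Slc27a4, Fabp3 and Meox2 in 4 each, and Pparg in 3. Within 1 group, 6 of the 10 members had at most 3 counts in one replicate and at least 100 in another. These were Lpl, Slc27a4, Pparg and Meox2 and, through naive replicate 5, Gpihbp1 and Fabp4. Of tested genes 55% did so, which puts the members near the background of these libraries. Per kilobase of transcript, the median level over all replicates was 261.3 CPM for Gpihbp1, 69.0 for Fabp4, 30.7 for Fabp5, 22.4 for Cd36 and 18.5 for Cpt1a, and at most 0.0717 for each of the other 5. The ranges of neighbours in this order overlapped at each step. Gpihbp1 had the highest level per kilobase among the members in 7 replicates and Fabp4 in 2.

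Lipolysis at the vessel wall involves both Gpihbp1, made by capillary endothelial cells, and Lpl, the enzyme it anchors. Gpihbp1 (ENSMUSG00000022579, mm9 chromosome 15, 75427088 to 75428642) measured 152.7, 231.8, 262.2, 167.2 and 0.150 CPM in naive replicates 1 to 5. In SCVS replicates 1 to 5 it measured 218.3, 138.1, 197.6, 678.0 and 256.7 CPM. Naive replicates 1 to 4 lay within the SCVS range, naive replicate 5 had 2 counts, and SCVS replicate 4 was the highest of all. The means were 162.8 ± 101.5 CPM in naive and 297.8 ± 216.9 CPM in SCVS mice (SD over 5 replicates a group, two-sided exact permutation p = 0.286), and the log2 fold change was 0.86 (standard error 1.02, 95% confidence interval −1.37 to 3.09). Without naive replicate 5 the naive mean was 203.5 ± 52.1 CPM (SD, n = 4, two-sided exact permutation p = 0.627) and the log2 fold change 0.53. Without SCVS replicate 4 the log2 fold change of Gpihbp1 was 0.28 and the difference in mean went from 135.0 to 39.9 CPM. As a share of the 6 pan-endothelial markers' summed CPM, Gpihbp1 was 0.0369% in naive replicate 5 and 2.16% to 15.0% in the other 9.

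Lpl (ENSMUSG00000015568, chromosome 8, 71404390 to 71431347) gave 1, 587, 0, 84 and 0 reads for the naive replicates in order, and 6, 2, 0, 207 and 230 for the SCVS replicates. It thus had at least 84 reads in 4 replicates, 2 of each group, and was near or below the floor in the rest. The means were 10.5 ± 20.03 CPM in naive and 7.85 ± 10.8 CPM in SCVS mice (SD over 5 replicates a group, two-sided exact permutation p = 0.873). The log2 fold change was −0.36 (standard error 2.35) and became 2.37 without naive replicate 2 and −0.69 without naive replicate 5. Of 7 adipocyte markers, Cidec, Lep, Retn and Slc2a4 did not pass 3 counts in any replicate. Adipoq had 139 counts in naive replicate 4 and 6 in naive replicate 2, both with at least 84 reads of Lpl. Plin1 had 72 counts in naive replicate 1 and 15 in SCVS replicate 3, where Lpl gave 1 and 0 reads. Cfd had 9 counts in naive replicate 1. The list summed to at most 10.6 CPM, reached in naive replicate 4, where Lpl measured 6.19 CPM. In SCVS replicates 4 and 5 no marker of the list passed 3 counts. The 8 macrophage and monocyte markers summed to 167.7 CPM in naive replicate 2, 637.4 in naive replicate 4, 4428 in SCVS replicate 4 and 237.9 in SCVS replicate 5, the Lpl-rich replicates, and to between 0.672 and 871.2 CPM in the others. The gate for CD45-CD31+ cells is meant to remove both cell types, and their part in the Lpl counts was not tested.

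At the plasma membrane, Cd36 was detected in every replicate, and Slc27a4 had either at least 218 counts or at most 1. Cd36 (ENSMUSG00000002944, chromosome 5, 17287508 to 17394777), a receptor for fatty acids and oxidised lipoproteins, measured 51.1, 15.8, 51.9, 189.8 and 50.8 CPM in naive replicates 1 to 5. In SCVS replicates 1 to 5 it measured 20.9, 106.8, 268.2, 138.7 and 125.9 CPM. Naive replicate 4 was far above the other naive replicates, and SCVS replicate 1 was below all but 1 of the naive ones. The means were 71.9 ± 67.7 and 132.1 ± 88.9 CPM (SD over 5 replicates a group, two-sided exact permutation p = 0.278), with a log2 fold change of 0.87 (standard error 0.71, 95% confidence interval −0.69 to 2.44). Leaving out naive replicate 4 gave a log2 fold change of 1.59, leaving out SCVS replicate 3 gave 0.42, and leaving out naive replicate 5 gave 0.78. Platelets and macrophages also carry CD36, and the gate is meant to remove the CD45+ macrophages. The 5 platelet markers summed to 145.7 CPM in naive replicate 4 and 277.3 CPM in SCVS replicate 3, where Cd36 was highest, and to between 0.0750 and 531.4 CPM in the other replicates. The macrophage and monocyte markers summed to 637.4 and 871.2 CPM in those 2 replicates, and to between 0.672 and 4428 CPM in the others. Their highest sum, 4428 CPM, was in SCVS replicate 4, where Cd36 was 138.7 CPM. Their part in the Cd36 level was not tested.

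Slc27a4 (ENSMUSG00000059316, chromosome 2, 29658154 to 29673042) gave 0, 0, 0, 1 and 218 reads for the naive replicates in order. The SCVS replicates gave 504, 596, 1, 1 and 473. The 3 highest values were thus SCVS replicates, the fourth was naive replicate 5, and the remaining 6 replicates had at most 1 count. The means were 3.29 ± 7.31 CPM in naive and 26.5 ± 24.6 CPM in SCVS mice (SD over 5 replicates a group, two-sided exact permutation p = 0.0556, where the smallest p that 5 against 5 allows is 0.00794). The log2 fold change was 2.90 (standard error 2.42, 95% confidence interval −2.40 to 8.20, edgeR adjusted p = 1.00). With all replicates the adjusted p in DESeq2 was also 1.00. Without naive replicate 5, the library with few endothelial reads and the only naive one above 1 count, the naive replicates held 1 count in all. The SCVS mean was then 110.4 times the mean CPM of the 3-count floor in naive replicates 1 to 4. That floor covers counting error only, so no lower bound on the fold follows. The adjusted p for Slc27a4 without naive replicate 5 was 4.484e-04 in DESeq2 and 0.906 in edgeR's quasi-likelihood test. DESeq2 called 1.51% of the 14191 genes tested in this way. The exact permutation p of Slc27a4 without naive replicate 5 was 0.0556 (two-sided, n = 4 and 5). With other replicates left out singly, this permutation p was 0.0952 without any one of naive replicates 1 to 4, 0.175 without SCVS replicate 1, 2 or 5, and 0.0159 without SCVS replicate 3 or 4, each of which had 1 count.

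**Figure D2:**
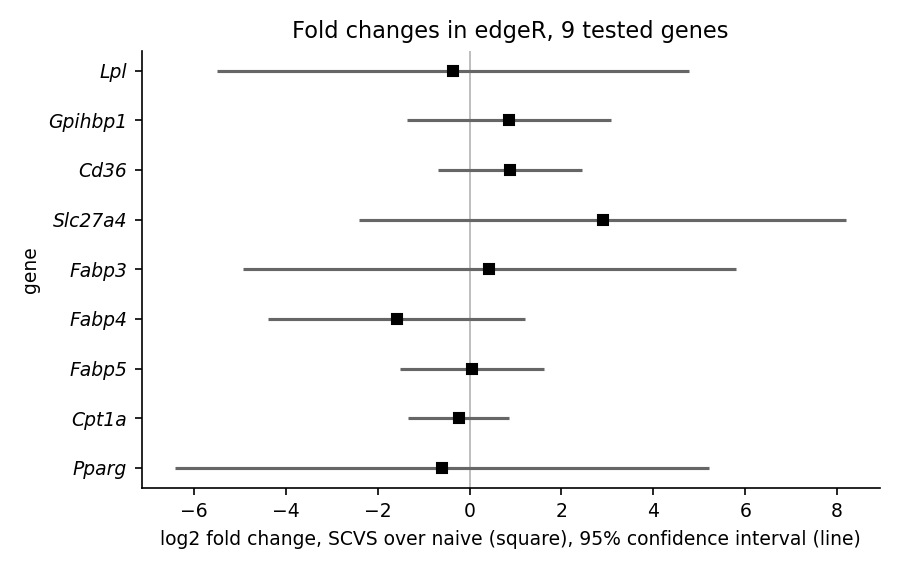
Log2 fold change of SCVS over naive for the 9 tested members in edgeR's quasi-likelihood fit (squares) with 95% confidence intervals (lines). Every interval includes 0, and those of Lpl, Slc27a4, Fabp3 and Pparg span more than 10 log2 units.

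Of the cytosolic binding proteins, Fabp4 and Fabp5 were abundant and Fabp3 was sparse. These genes are paralogues, so a stretch of the second coding exon is shown to let a reader judge how far reads could be shared between them. Each line holds 60 coding bases, 5′ to 3′, of the transcript in the GENCODE M1 annotation of mm9, starting at coding base 76 in Fabp3, Fabp4 and Fabp7 and at the aligned base 82 in Fabp5. Capitals mark the longest run that Fabp3 and Fabp4 share, 14 bases, and the bases equal to it in the other genes.
Fabp3 (chr4:129989537-129989596, + strand): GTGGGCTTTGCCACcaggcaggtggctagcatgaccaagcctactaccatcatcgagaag
Fabp4 (chr3:10206061-10206120, − strand): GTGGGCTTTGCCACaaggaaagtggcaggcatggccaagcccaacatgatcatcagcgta
Fabp5 (chr3:10014973-10015032, + strand): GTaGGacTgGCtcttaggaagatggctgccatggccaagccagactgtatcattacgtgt
Fabp7 (chr10:57505314-57505373, + strand): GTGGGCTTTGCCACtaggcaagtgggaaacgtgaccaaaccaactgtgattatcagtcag
Over whole coding sequences, the 6 pairs of these genes were 56.8% to 66.7% identical and shared no exact run longer than 20 bases. The processed copies that the table lists, Fabp3-ps1 and Fabp5l2, had 33 and 0 counts in total.

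Fabp4 (ENSMUSG00000062515, chromosome 3, 10204347 to 10208576), the adipocyte FABP, which capillary endothelium and macrophages also make, measured 49.8, 152.5, 9.73, 544.7 and 0.0750 CPM in naive replicates 1 to 5. In SCVS replicates 1 to 5 it measured 52.1, 121.0, 28.8, 38.1 and 22.2 CPM. The naive replicates reached both above and below the whole SCVS range. The means were 151.4 ± 228.0 and 52.5 ± 39.9 CPM (SD over 5 replicates a group, two-sided exact permutation p = 0.516), with a log2 fold change of −1.59 (standard error 1.28, 95% confidence interval −4.39 to 1.21). The difference rested on naive replicate 4: without it the log2 fold change was −0.09, without naive replicate 5 it was −1.89, and on the log2(CPM + 1) scale with all replicates the SCVS mean of Fabp4 was higher by 0.37. Naive replicate 4 also held the highest sum of adipocyte markers, 10.6 CPM. Adipoq, at 10.2 CPM, was the only 1 of the 7 above the floor there. The next highest sum, 7.77 CPM, was in naive replicate 1, where Fabp4 measured 49.8 CPM. The part of adipocytes in the Fabp4 level was not tested.

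Fabp5 (ENSMUSG00000027533, chromosome 3, 10012548 to 10016607), the epidermal FABP, measured 30.7, 14.9, 40.7, 7.66 and 67.4 CPM in naive replicates 1 to 5. In SCVS replicates 1 to 5 it measured 58.2, 26.9, 29.9, 21.8 and 38.3 CPM, within the naive range. The means were 32.3 ± 23.6 and 35.0 ± 14.3 CPM (SD over 5 replicates a group, two-sided exact permutation p = 0.825), and the log2 fold change was 0.06 (standard error 0.72, 95% confidence interval −1.51 to 1.63). Unlike Gpihbp1 and Fabp4, Fabp5 had its highest value in naive replicate 5, without which its log2 fold change was 0.51 and the two-sided exact permutation p 0.286. Fabp3 (ENSMUSG00000028773, chromosome 4, 129985839 to 129992707), the FABP of heart and skeletal muscle, was counted 57 and 62 times in naive replicates 1 and 5, 75 and 83 times in SCVS replicates 4 and 5, and at 0 in the remaining 6. Its log2 fold change of 0.43 had a standard error of 2.45 and was 0.98 without naive replicate 5. Of 5 striated muscle markers, Ckm and Tnnt3 did not pass 3 counts anywhere. The list summed to at most 10.5 CPM, all of it Mb (140 counts), in naive replicate 5, where Fabp3 measured 4.65 CPM. Mb also had 84 counts in naive replicate 4 and Acta1 47 in naive replicate 2, both with 0 counts of Fabp3. In SCVS replicates 4 and 5 the list summed to 1.21 and 0 CPM. The part of muscle in the Fabp3 counts was not tested. Exons of Fabp3 overlap Gm10570 and Zcchc17 on the opposite strand, and whether the counting used strand is not stated, so its reads cannot be told from theirs there.

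Fabp4 and Fabp5 were ordered in opposite ways over the replicates. Among the 10 pairs of the 5 steadily detected members, the correlation of log2(CPM + 1) was −0.82 for Fabp4 with Fabp5 (Pearson's r, with Spearman's rho −0.75, n = 10), and it was −0.45 to 0.67 for the other 9 pairs. Without naive replicate 5, r was −0.80 for Fabp4 with Fabp5 (rho −0.65, n = 9), whereas that of Gpihbp1 with Fabp4 went from 0.67 to −0.38. These points share library depth and composition, and the pair is singled out after its values were seen, so no p is given. Naive replicate 4 had the highest Fabp4 and the lowest Fabp5, and naive replicate 5 the reverse. Per kilobase, Fabp4 was above Fabp5 in 7 of 10 replicates.

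**Figure D3:**
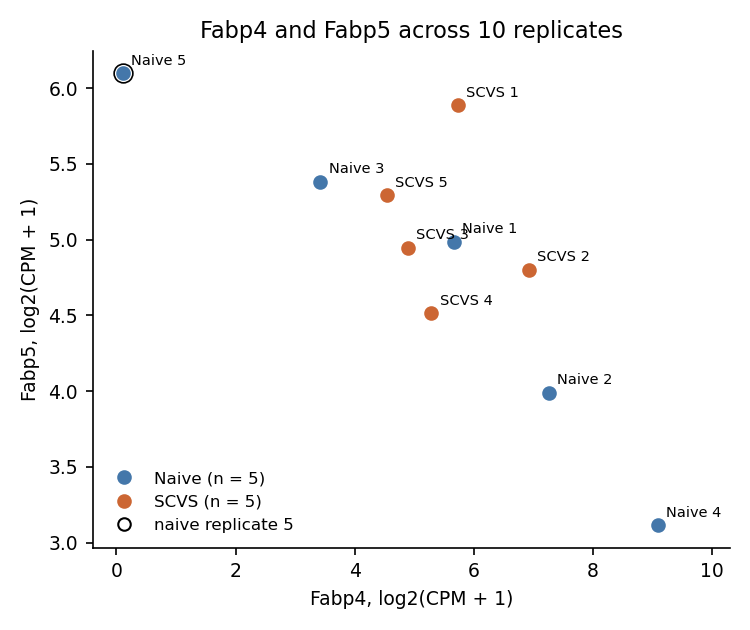
Fabp5 against Fabp4, both as log2(CPM + 1), with 1 point per replicate (naive blue, SCVS orange, naive replicate 5 ringed). The points run from high Fabp5 and nearly no Fabp4 in naive replicate 5 to the opposite in naive replicate 4, with r = −0.82 over 10 replicates and the SCVS replicates in between.

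Cpt1a, the mitochondrial gate for long-chain fatty acids, was the most even of the members. Cpt1a (ENSMUSG00000024900, chromosome 19, 3323301 to 3385732) measured 112.6, 29.8, 129.3, 102.2 and 45.5 CPM in naive replicates 1 to 5 and 105.4, 40.7, 87.4, 60.3 and 71.9 CPM in SCVS replicates 1 to 5. All SCVS replicates lay within the naive range. The means were 83.9 ± 43.6 and 73.1 ± 24.8 CPM (SD over 5 replicates a group, two-sided exact permutation p = 0.651), and the log2 fold change of −0.23 (standard error 0.50) had the narrowest 95% confidence interval among the members, −1.33 to 0.86. It was −0.39 without naive replicate 5. The coefficient of variation over all replicates was 43.2% for Cpt1a, and 12.0% of tested genes had a lower one.

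Both regulators were found in few replicates. Pparg (ENSMUSG00000000440, chromosome 6, 115311239 to 115440419) reached 280 counts in naive replicate 4 and 169 in SCVS replicate 3, had 21 and 2 in naive replicate 3 and SCVS replicate 2, and was at 0 elsewhere. Its log2 fold change of −0.60 had a standard error of 2.65 and was −0.91 without naive replicate 5. The 2 replicates richest in Pparg were also the 2 with the highest Cd36, 1 of each group, whereas of these only naive replicate 4 had a high Fabp4. This match was picked out after the values were seen, and a link between the genes was not tested. Meox2 (ENSMUSG00000036144, chromosome 12, 37835127 to 37908372) had 561 counts in naive replicate 3, 116 in SCVS replicate 2, 5 and 4 in SCVS replicates 3 and 4, and at most 2 in the others, and was not tested. Its mean was 8.07 ± 17.9 CPM in naive and 2.05 ± 4.19 CPM in SCVS mice (SD over 5 replicates a group, two-sided exact permutation p = 0.960). Its paralogue Meox1 was in contrast detected in all 10 replicates, at 30.0 to 471.1 CPM.

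**Figure D4:**
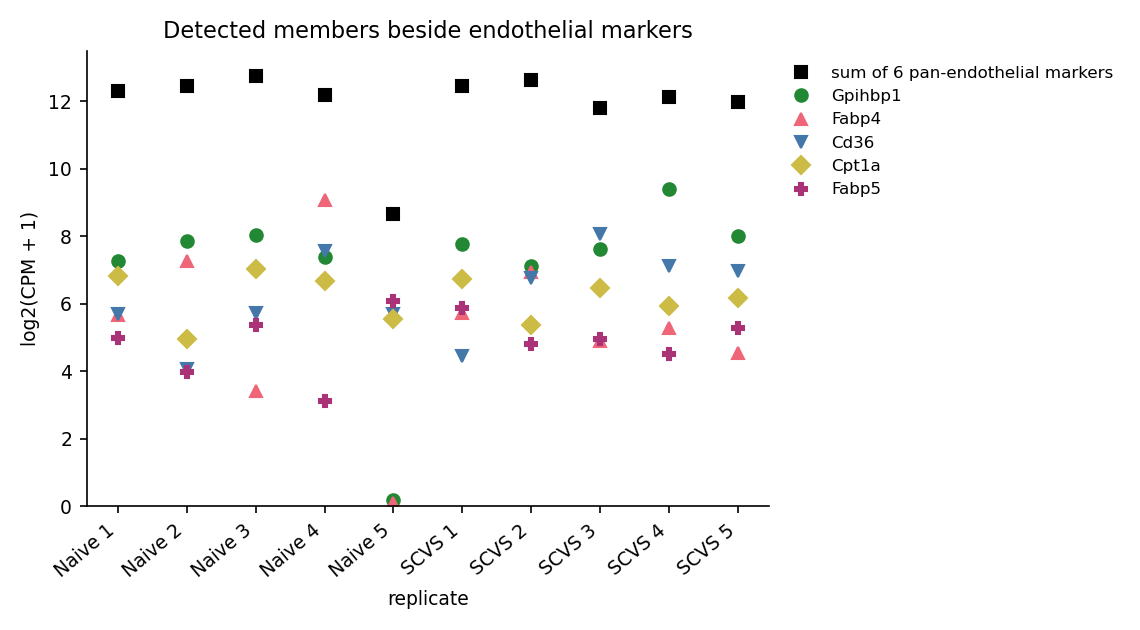
The 5 steadily detected members and the summed pan-endothelial markers (black squares) in each replicate, as log2(CPM + 1). In naive replicate 5 the marker sum is 407.1 CPM and Gpihbp1 and Fabp4 are below 0.2 CPM, while Cd36, Cpt1a and Fabp5 stay within their range in the other replicates or, for Fabp5, above it.

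A list of 77 further genes of fatty acid handling, grouped by role, held no called gene either. Of these, 58 passed the filter on low counts, 0 were called by edgeR, and 0 had an unadjusted p under 0.05, beside 3.1% of all tested genes. Of the log2 fold changes, 29 were above and 29 below 0, with a median of 0.03. Among 8 tested genes of uptake and transport, 7 had a log2 fold change below 0 (median −0.24), and among 16 tested regulators 10 had one above 0 (median 0.73), but none of these passed the test. Cav1, the scaffold of caveolae, had the highest mean CPM of the uptake group, with 892.8 ± 557.9 CPM in naive and 813.3 ± 266.4 CPM in SCVS mice (SD over 5 replicates a group, edgeR log2 fold change −0.16, standard error 0.71). Its lowest value, 19.7 CPM, was in naive replicate 5, as was that of the endothelial markers. Per kilobase Fabp7, the brain FABP, was higher than Cav1, with a mean of 548.0 against 338.2 CPM. Fabp7 exceeded Fabp5 per kilobase in all 10 replicates and Fabp4 in 7, at 88.0 to 1013 CPM, and was highest in naive replicate 5.

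The genes with the highest mean CPM, not scaled to length, in the remaining roles were Scarb1 (lipoprotein receptor), Acsl5 (acyl-CoA synthetase), Acadm (medium-chain acyl-CoA dehydrogenase), Mgll (monoacylglycerol lipase) and Meox1. Acadm was the steadiest, with 172.8 ± 33.0 CPM in naive and 199.2 ± 11.8 CPM in SCVS mice (SD over 5 replicates a group) and 136.5 CPM as its lowest value, so that naive replicate 5 did not stand apart for this gene. Meox1 had 137.5 ± 77.1 CPM in naive and 261.6 ± 142.1 CPM in SCVS mice (SD over 5 replicates a group, two-sided exact permutation p = 0.143, edgeR log2 fold change 0.90, standard error 0.54). Scarb1 had a log2 fold change of −0.39 (standard error 0.81), Acsl5 of 0.40 (0.57) and Mgll of 0.23 (0.52). Decr1, a reductase for the oxidation of unsaturated fatty acids, singled out after its values were seen, had the smallest p of the list in edgeR's quasi-likelihood test, with 9.23 ± 12.5 CPM in naive and 65.8 ± 70.6 CPM in SCVS mice (SD over 5 replicates a group). Its log2 fold change was 2.83 (standard error 1.47), with an unadjusted p of 0.0801 and an adjusted p of 1.00 in edgeR. In two-sided exact permutation tests of CPM, Decr1 and the acyl-CoA synthetase Acsl3 had the smallest p of the list, 0.0238 each before adjustment. They are the lowest of 77 such tests, and the share of all tested genes with so small a permutation p was not computed. Acsl3, also singled out after its values were seen, had 26.5 ± 14.4 CPM in naive and 50.6 ± 9.81 CPM in SCVS mice. Its edgeR log2 fold change was 0.89 (standard error 0.60, unadjusted p = 0.168), and it was not called.

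**Figure D5:**
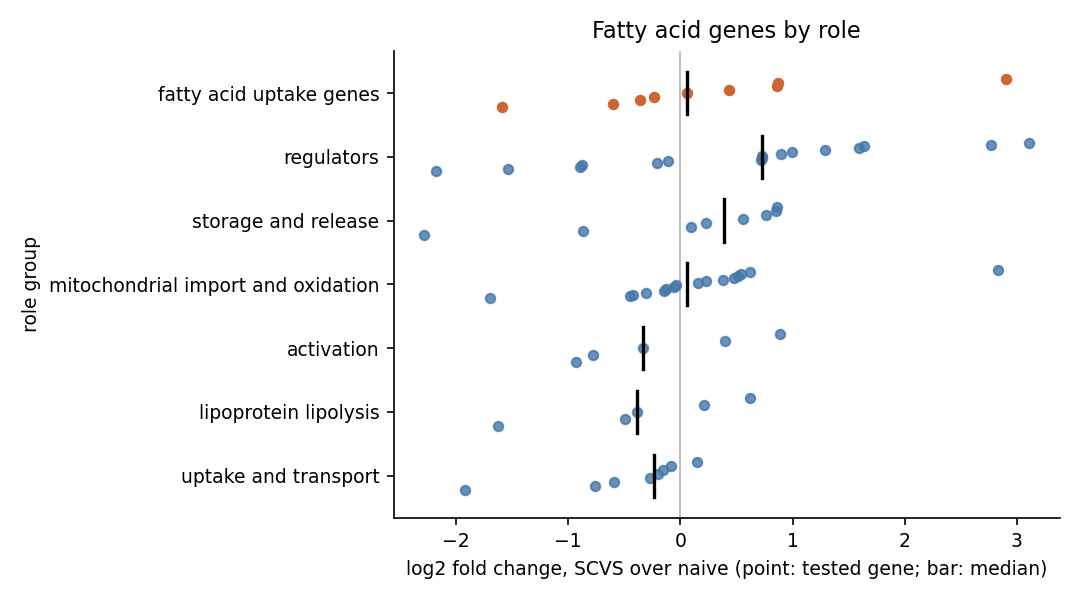
Log2 fold change of SCVS over naive for each tested gene of the 77-gene list by role (blue) and for the 9 tested members (orange), with a bar at each median. The medians lie between −0.39 for lipoprotein lipolysis and 0.73 for regulators, and 0 of the genes passed the test.

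Outside these lists, the genes whose log2(CPM + 1) followed a member most closely over the 10 replicates were sought among 9969 tested genes with a mean of at least 10 CPM. For Gpihbp1 they were Irgm2, Ildr2 and Xaf1 (Pearson's r = 0.98 each, n = 10), which were all at their lowest in naive replicate 5, at 1.88, 0 and 0.0750 CPM. For Fabp4 they included Elovl5, a fatty acid elongase (r = 0.96), and Shank3 (r = 0.91), both also at their lowest in naive replicate 5. For Cd36 they were 1110051M20Rik (r = 0.89), Trim28 (r = 0.88) and Tpp2 (r = 0.88), and naive replicate 5 was not the lowest for any of the 3. These are the highest values of many, from 10 replicates that share depth and composition, and are given as a description.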

How the data were processed

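Reads from amplified cDNA of sorted cells were trimmed, aligned with HISAT2 2.0.1 and, per the submitters' processing notes, counted with HTSeq 0.6.1, and the values the authors deposited are raw, unnormalised counts. Those notes name GRCm38 and the paper's methods mm9. Of the 55401 identifiers, 32589 (58.8%) are in GENCODE M1, the mm9 annotation from which positions, transcript lengths and coding sequences were taken. The annotation and strand setting used for counting are not given in the sources used here. The test took genes above 5 counts in 3 or more of 10 replicates and used edgeR 4.0.16 (R 4.3.3; TMM, quasi-likelihood, no block, Benjamini-Hochberg, threshold 0.1), a filter and threshold taken from the study's methods. The standard error is the absolute log2 fold change over the square root of F. DESeq2 1.42.0 and limma 3.58.1 were alternatives, and the fits were tested on simulated counts. The simulated counts had less spread between replicates than these data, whose common biological coefficient of variation in edgeR was 1.59. They therefore do not show how the fits perform at the spread of these data. CPM were compared with exact permutation tests, raw p. The members and lists were chosen with earlier results of these data known. Named are all members, the pathway gene with the highest mean CPM in each role, pathway genes with an unadjusted edgeR p under 0.05 (there were 0), and the 3 genes most correlated with each of Cd36, Fabp4 and Gpihbp1, of which 1 is not reported here. Fabp7, Decr1 and Acsl3 were added after their values were seen.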

Additional observations from a re-analysis of the deposited data

Results flagged for a closer look

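In 9 of the 20 groups of 5 replicates (10 members in 2 groups), 1 extreme replicate, in each case the highest, was separated from the nearest other by more than 0.71 of the group's range. For normally distributed values chance alone does this at either end in about 1 of 20 groups, but among the groups of all tested genes here 22.3% did so. The share was 45% for the members, which counts both groups of Meox2, each flagged, although Meox2 was not a tested gene. The sets are thus unlike, and the difference was not tested. In naive mice these were replicate 2 for Lpl (45.97 CPM, next 6.19), replicate 3 for Meox2 (40.1 CPM, next 0.192), and replicate 5 for Slc27a4 (16.4 CPM, next 0.0737). Naive replicate 4 was the highest for Cd36 (189.8 CPM, next 51.9), Fabp4 (544.7 CPM, next 152.5) and Pparg (20.6 CPM, next 1.503). In SCVS mice these were replicate 4 for Gpihbp1 (678.0 CPM, next 256.7), replicate 3 for Pparg (13.7 CPM, next 0.164) and replicate 2 for Meox2 (9.53 CPM, next 0.406).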

How the results depend on the processing

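By edgeR's quasi-likelihood test 0 genes were called under each scaling, filter and left-out replicate, and the genes at an unadjusted p under 0.05 were 460 as reported, 454 to 465 under other scalings, 379 to 601 with a replicate left out, 133 with the CPM filter, 4941 with no filter and 266 with a replicate block. Called genes numbered 114 in DESeq2, 123 without its Cook's filter, 38 in edgeR's likelihood ratio test, 3 in limma with voom and, added after the data were seen, 214 in DESeq2 without naive replicate 5. Called members remained 0 except in that last fit, which called 1, Slc27a4 (log2 fold change 10.05, a fitted value against near-zero counts). Called genes of the 77-gene list were 0 throughout. Same-numbered replicates are pools of different mice, so the number was not taken as a pairing. Their deviations correlated by −0.02 to 0.15, yet 4 of 5 naive replicates were closest to their own number. Whether same-numbered pools shared a processing batch was not tested. With a replicate block no member was called, and the log2 fold change turned to 1.40 for Lpl, 0.41 for Fabp4 and 0.97 for Pparg, while in limma with voom that of Lpl was 0.11.

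With each replicate left out, log2 fold changes ranged from −1.32 to 2.37 for Lpl, −0.55 to 1.26 for Fabp3 and −0.20 to 0.51 for Fabp5, changing sign. The difference in mean CPM ranged likewise from −6.39 to 6.28 for Lpl, −0.61 to 1.63 for Fabp3, −3.44 to 11.5 for Fabp5, −24.3 to 0.61 for Cpt1a, −4.39 to 2.40 for Pparg and −8.04 to 2.00 for Meox2. The difference on the log2(CPM + 1) scale was 0.17 for Lpl and 0.37 for Fabp4, and on the log2(CPM + 0.1) scale 0.63 for Lpl, 0.89 for Fabp4 and 0.15 for Meox2. As a percent of the pan-endothelial markers, added after the data were seen, SCVS minus naive was −0.57 for Cd36, −0.29 for Slc27a4, −0.18 for Fabp3 and −2.90 for Fabp5. Without naive replicate 5, whose marker sum was the lowest, these were 1.62, 0.52, 0.04 and 0.34. The cause of the other changes was not tested. Log2 fold changes of Gpihbp1, Cd36, Slc27a4 and Cpt1a kept their sign in all fits run. Without naive replicate 1, which had the lowest sum of lymphatic markers, they were 0.85 for Gpihbp1, 0.79 for Cd36, 2.61 for Slc27a4 and −0.09 for Cpt1a. In the same fit they were −0.68 for Lpl, 1.26 for Fabp3, −1.79 for Fabp4, 0.06 for Fabp5 and −0.92 for Pparg.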
